A study of Homo sapiens with 4 samples.

Results

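The genes described here control the step from G1 into S phase of the cell cycle. They are *CDKN1B*, which encodes the inhibitor P27, the D-type cyclins *CCND1*, *CCND2* and *CCND3*, the kinases *CDK2*, *CDK4* and *CDK6*, *RB1*, and *SKP2*. The 9 genes were listed by name. Of these, 8 were measured among the 46660 gene identifiers of the expression table, and *CCND2* (Entrez gene 894), which had no row, was not analysed here.

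A growing cell passes from G1 into S phase when D-type cyclins bind CDK4 or CDK6 and the pair phosphorylates RB1, which then releases E2F transcription factors. Cyclin E with CDK2 completes this phosphorylation, and P27 holds CDK2 complexes inactive until it is marked for degradation by the ubiquitin ligase that contains SKP2. Gliomas commonly carry lesions in this RB1 pathway, and the amount of P27 protein is set largely by degradation as well as by transcription.

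The present data comprised 4 RNA-seq libraries of the human glioblastoma cell lines U87MG and U251MG, which are established lines grown in culture. Each line gave 1 control library, from cells that had received lentivirus with the empty vector pGreen (named shControl in the sample titles), and 1 library from cells that had received lentivirus expressing shRNA against *FLI1* (shFLI1), an ETS family transcription factor. All cells, the controls included, had been treated with polybrene, selected with puromycin and collected as mixed stable cells, so no library was a single clone, and the labels do not say which shRNA against *FLI1* was used. The comparisons asked how the G1 genes differed between the cell lines and how they differed between shFLI1 and control cells.

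The libraries held between 12229780 and 28891055 estimated counts, with more counts in shFLI1 than in control cells of either line. A count of 3 corresponded to at most 0.262 CPM, the counts of a gene per total counts after TMM scaling, which corrects for composition, and each of the 8 genes had at least 424 counts in each library. The targeted gene matched the labels: *FLI1* stood at 9.34 CPM in U87MG control against 2.34 CPM with shFLI1, and at 12.1 CPM in U251MG control against 3.71 CPM with shFLI1. Of 7 glial and glioma markers, *VIM*, *CD44*, *NES* and *SOX2* had at least 117 CPM in all libraries, *S100B* and *AQP4* had at most 0.367 CPM, and *GFAP* had 634 and 1587 CPM in U87MG control and shFLI1 but 20.4 and 93.8 CPM in U251MG control and shFLI1. Among the markers of other cell types, the blood marker *PTPRC*, the endothelial marker *PECAM1*, the epithelial marker *CDH1* and the neuronal marker *RBFOX3* had at most 0.167 CPM. *CD68* had 4.10 and 9.14 CPM in the U87MG and U251MG controls and 0.540 and 0.468 CPM in their shFLI1 libraries, *SNAP25*, *CDH5*, *VWF* and *ITGAM* had at most 4.45 CPM, *SYT1* had between 11.7 and 27.5 CPM, and *KRT8* had between 49.3 and 460 CPM. *AIF1* and *EPCAM* had no row and were not analysed here. Whether the differences in *GFAP*, *CD68* or *KRT8* have a part in the results on the G1 genes was not tested.

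FLI1 binds DNA through an ETS domain, whose core motif is GGAA. The RefSeq promoter table of GRCh38.p14 held entries for 6 of the listed genes (*CDKN1B*, *CCND3*, *CDK4*, *CDK6*, *RB1* and *SKP2*), with 9 start sites in all. The 250 bases before the start of the main annotated transcript are shown for *CDKN1B*, whose protein the study followed, for *CCND3*, the listed gene that passed the test of a shared change, and for *CDK6*, the listed gene with the highest fold in both cell lines. Each is written 5' to 3' on the strand of its gene, with the ETS core on either strand (GGAA or TTCC) in capitals.
CDKN1B, chr12:12717118-12717367, plus strand: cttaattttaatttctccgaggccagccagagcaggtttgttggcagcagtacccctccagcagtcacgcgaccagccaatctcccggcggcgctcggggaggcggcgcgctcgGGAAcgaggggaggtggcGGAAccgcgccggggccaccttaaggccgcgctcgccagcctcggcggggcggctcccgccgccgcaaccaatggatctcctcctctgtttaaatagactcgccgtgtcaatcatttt
CCND3, chr6:41941809-41942058, minus strand: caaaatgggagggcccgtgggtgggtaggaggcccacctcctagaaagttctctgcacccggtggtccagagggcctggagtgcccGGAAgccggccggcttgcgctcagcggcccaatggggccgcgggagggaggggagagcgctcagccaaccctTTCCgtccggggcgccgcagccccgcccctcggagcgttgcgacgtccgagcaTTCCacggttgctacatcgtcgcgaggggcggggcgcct
CDK6, chr7:92836574-92836823, minus strand: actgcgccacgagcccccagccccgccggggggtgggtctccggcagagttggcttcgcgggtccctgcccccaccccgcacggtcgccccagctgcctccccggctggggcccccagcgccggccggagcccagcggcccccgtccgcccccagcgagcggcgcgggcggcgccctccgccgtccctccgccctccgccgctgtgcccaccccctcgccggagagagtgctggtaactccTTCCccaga
The window held 2 ETS cores in *CDKN1B*, 3 in *CCND3* and 1 in *CDK6*. In comparison, at least 1 core lay in 92.7% of all 35116 windows of the same length in the table, with a median of 3, so the presence of the core did not set these promoters apart. The longer ETS site CCGGAAGT, which contains the core, and the E2F site forms TTTCCCGC and TTTGGCGC were found on neither strand of any of the 9 windows. These sites were held by 3.42%, 1.39% and 0.550% of all windows, respectively. The only *RB1* window, chr13:48476200-48476449, lay inside the gene and not before its main annotated transcript. The main *RB1* promoter was therefore not searched. The 9 windows also included starts of *CCND3* and *CDK6* other than that of the main transcript. A match or its absence describes the letters in the window only, and binding was not measured in these data.

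Each arm of each cell line had 1 library, so no replicate spread stands behind a fold change within 1 cell line. The intervals below are exact 95% binomial intervals (Clopper-Pearson) of how the gene's reads divide between both libraries, or, for a difference of 2 fold changes, a normal approximation from the counts. They describe counting error only, and can understate it, since PCR reads are not independent molecules. The main tests across libraries were those of edgeR's quasi-likelihood model with a term for cell line and a term for knockdown. In this model, the shared change after knockdown takes the 2 cell lines as its replicates, and the difference between cell lines takes the control and the shFLI1 pair as its replicates. No label says that the libraries came from separate cultures or infections beyond the cell line and the vector. In bulk RNA, fewer cells at one stage of the cycle and less RNA per cell cannot be told apart.

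**Figure D1:**
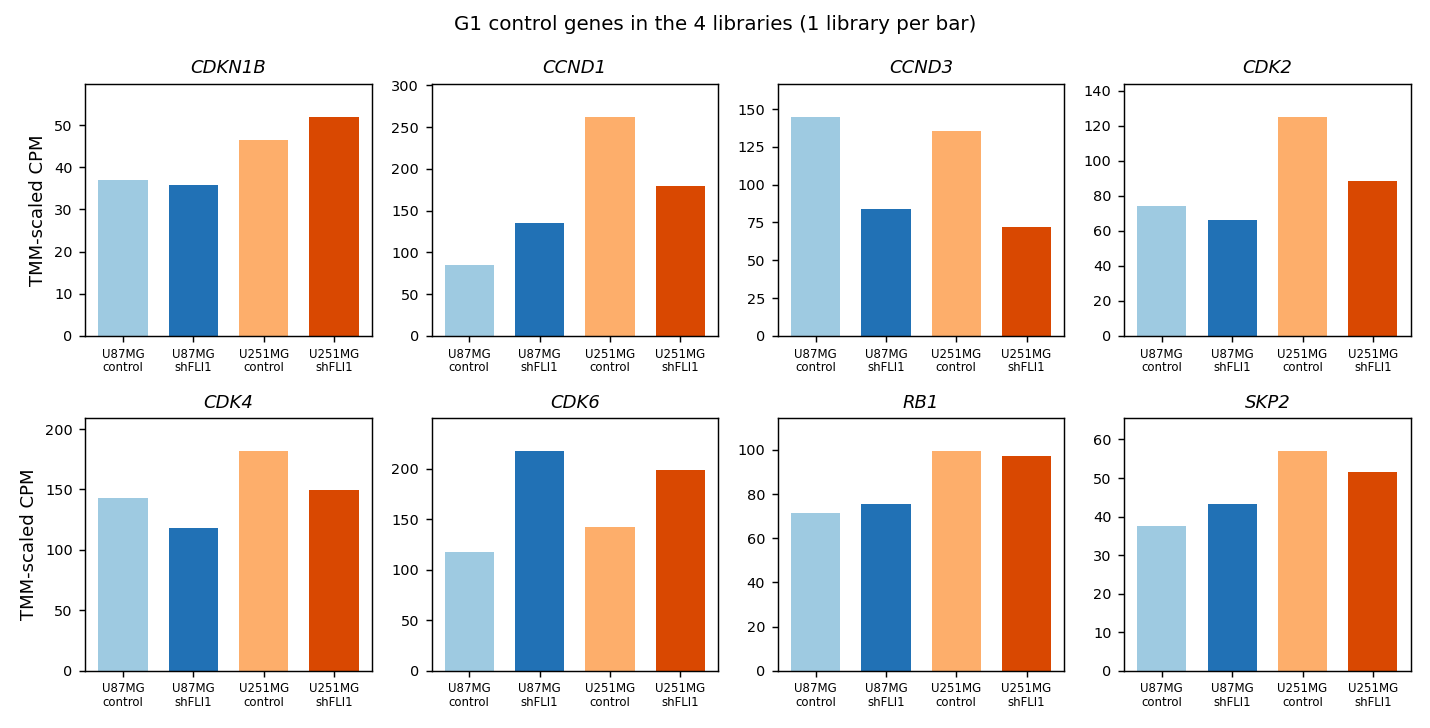
TMM-scaled CPM (y axis, linear from 0, a separate scale in each panel) of the 8 measured G1 genes in the 4 libraries, 1 library per bar and therefore without error bars. *CCND3* was lower in both shFLI1 libraries, at 84.2 and 72.2 CPM, than in both controls, at 145 and 135 CPM, while the *CCND1* bars run in opposite directions in the cell lines.

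After *FLI1* knockdown, the 2 measured D-type cyclins behaved differently. *CCND3* fell in both cell lines to between 0.534 and 0.580 of its control level, and *CCND1* was 1.58-fold higher in U87MG shFLI1 cells but 0.683 of its control level in U251MG shFLI1 cells. *CDK6* was higher in both shFLI1 libraries, by 1.84-fold in U87MG and 1.39-fold in U251MG, without passing the test of a shared change. *CDKN1B* RNA was at 0.968 of its control level in U87MG and 1.12-fold higher in U251MG, and did not pass the test.

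*CCND3* encodes cyclin D3, a D-type cyclin that activates CDK4 and CDK6. The gene (Entrez 896) lies on chromosome 6 from 41934933 to 42050035 in GRCh38. Its level was 145 CPM (1661 counts) in U87MG control cells and 84.2 CPM (1872 counts) in U87MG shFLI1 cells. The U251MG levels were 135 CPM (2411 counts) in control and 72.2 CPM (2161 counts) in shFLI1 cells. Both shFLI1 libraries lay below both controls, and the levels of the 2 cell lines were close to each other within each condition. The log2 fold change was -0.78 in U87MG (interval -0.88 to -0.69) and -0.91 in U251MG (interval -0.99 to -0.82). The shared log2 fold change was -0.86 (SE 0.14, adjusted p = 0.0144 by edgeR's quasi-likelihood test with Benjamini-Hochberg adjustment over 16649 genes), with a lower value in 2 of 2 cell lines. The call was lost with limma on the authors' FPKM (adjusted p = 0.174) and in edgeR without the cell line term (adjusted p = 0.836). Each of these fits called 0 of all 16649 genes. The full-length mRNA NM_001760 carried at least 83.2% of the gene's counts in each library and gave similar folds, 0.555 in U87MG and 0.532 in U251MG.

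*CCND1* encodes cyclin D1, the D-type cyclin best known as a target of growth factor signalling. The gene (Entrez 595) lies on chromosome 11 from 69641156 to 69654474. U87MG control cells had 85.3 CPM (977 counts) and U87MG shFLI1 cells 135 CPM (2996 counts). U251MG control cells had 263 CPM (4682 counts) and U251MG shFLI1 cells 179 CPM (5369 counts). The U87MG control was the lowest library and the U251MG control the highest, and the shFLI1 libraries lay between them. On the log2 scale, the change was 0.66 in U87MG (interval 0.55 to 0.76) and -0.55 in U251MG (interval -0.61 to -0.49). The change in U251MG minus that in U87MG was -1.21 on the log2 scale, with a counting interval of -1.33 to -1.09. The libraries allowed no test of this difference. In the shared model the change was 0.03 (SE 0.25, adjusted p = 0.973 by edgeR's quasi-likelihood test), with an SE above those of the other 7 genes. A single mRNA, NM_053056, carried at least 99.5% of the counts in each library.

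The kinases that the D-type cyclins bind differed in direction. *CDK6* (Entrez 1021, chromosome 7 from 92604921 to 92836573) was at 118 CPM (1348 counts) in U87MG control and at 217 CPM (4828 counts) in U87MG shFLI1 cells. It was at 143 CPM (2542 counts) in U251MG control and at 199 CPM (5949 counts) in U251MG shFLI1 cells. Both shFLI1 libraries lay above both controls. Its log2 fold change was 0.88 in U87MG (interval 0.80 to 0.97) and 0.48 in U251MG (interval 0.41 to 0.55), and the U251MG value minus the U87MG value was -0.40 (counting interval -0.51 to -0.29). The shared change was 0.66 (SE 0.16, adjusted p = 0.0639 by edgeR's quasi-likelihood test), which missed the threshold of 0.05, while DESeq2's Wald test gave an adjusted p of 0.0394 for the same model.

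*CDK4* (Entrez 1019, chromosome 12 from 57747727 to 57752310) was at 143 CPM (1638 counts) in U87MG control and at 118 CPM (2620 counts) in U87MG shFLI1 cells. The corresponding U251MG levels were 182 CPM (3238 counts) and 149 CPM (4470 counts). The shFLI1 library was the lower one of each pair, but the U251MG shFLI1 level was above the U87MG control level. For *CDK4*, the log2 fold change was -0.28 in U87MG (interval -0.37 to -0.19) and -0.28 in U251MG (interval -0.35 to -0.22). Counting error did not separate the changes in the cell lines, whose difference had an interval of -0.11 to 0.11. Its shared change of -0.30 (SE 0.14) did not pass edgeR's test (adjusted p = 0.333).

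*CDK2* encodes the kinase that cyclin E and cyclin A activate at the start of S phase. The gene (Entrez 1017) lies on chromosome 12 from 55966830 to 55972789. U87MG control cells held 74.0 CPM (847 counts) and U87MG shFLI1 cells 66.0 CPM (1467 counts). U251MG control cells held 125 CPM (2235 counts) and U251MG shFLI1 cells 88.7 CPM (2657 counts). The U251MG control stood above the other libraries. *CDK2* differed by -0.17 (log2) in U87MG (interval -0.29 to -0.04) and -0.50 in U251MG (interval -0.58 to -0.42). With total-count scaling the U87MG value was -0.0046. Its shared change was -0.35 (SE 0.15, adjusted p = 0.272 by edgeR).

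P27 binds and inhibits cyclin E and cyclin A complexes with CDK2. Its gene *CDKN1B* (Entrez 1027, chromosome 12 from 12717368 to 12722369) was at 37.0 CPM (424 counts) in U87MG control cells and at 35.8 CPM (797 counts) in U87MG shFLI1 cells. In the U251MG libraries it was at 46.4 CPM (828 counts) in control and at 52.0 CPM (1558 counts) in shFLI1 cells. The levels within each cell line were close, and both U251MG libraries lay above both U87MG libraries. For *CDKN1B*, the log2 fold change was -0.05 in U87MG (interval -0.22 to 0.13) and 0.16 in U251MG (interval 0.04 to 0.29). The U87MG value changed sign with total-count scaling, to 0.11, and with the authors' FPKM. Over both cell lines the change was 0.05 (SE 0.15, adjusted p = 0.917 by edgeR), so a change in *CDKN1B* RNA was not detected. These data hold RNA only and do not measure P27 protein.

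*SKP2* encodes the F-box protein that recruits phosphorylated P27 to its ubiquitin ligase. The gene (Entrez 6502) lies on chromosome 5 from 36152111 to 36193530. Levels were 37.5 CPM (429 counts) in U87MG control and 43.2 CPM (960 counts) in U87MG shFLI1 cells, and 56.9 CPM (1015 counts) in U251MG control and 51.5 CPM (1541 counts) in U251MG shFLI1 cells. The shFLI1 library was the higher one in U87MG and the lower one in U251MG, so the gap between the cell lines was narrower among shFLI1 cells. This gave a log2 fold change of 0.20 in U87MG (interval 0.04 to 0.37) and -0.15 in U251MG (interval -0.26 to -0.03). The U87MG value turned to -0.07 when only the most abundant RNA was counted, and the U251MG value to 0.01 with the authors' FPKM. The shared value was 0.01 (SE 0.15, adjusted p = 0.985 by edgeR).

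*RB1* encodes the retinoblastoma protein that restrains E2F factors. The gene (Entrez 5925) lies on chromosome 13 from 48303751 to 48481890. U87MG cells had 71.3 CPM (816 counts) as controls and 75.5 CPM (1679 counts) with shFLI1. U251MG cells had 99.4 CPM (1772 counts) as controls and 97.4 CPM (2916 counts) with shFLI1. The levels split by cell line and hardly by knockdown. Both counting intervals of the log2 fold change included 0, from -0.04 to 0.21 in U87MG and from -0.12 to 0.06 in U251MG. The shared value was likewise 0.01 (SE 0.14, adjusted p = 0.981 by edgeR).

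Across the listed genes, 0 of 8 differed by more than 2-fold in U87MG, where 14.5% of 17355 tested genes did, and 0 of 8 in U251MG, where 9.76% of 18222 did. Of the 8 genes, 1 passed the test of a shared change, *CCND3*, which was lower. Among all 16649 genes tested, 3.06% passed, with 153 higher and 356 lower. The median log2 fold change over the 8 genes was 0.02 in U87MG and -0.21 in U251MG, beside 0.06 and 0.04 over all genes tested. In U87MG, the counting interval lay above 0 for 3 of the 8 genes (*CCND1*, *CDK6* and *SKP2*) and below 0 for 3 (*CCND3*, *CDK2* and *CDK4*). In U251MG, it lay above 0 for 2 (*CDK6* and *CDKN1B*) and below 0 for 5 (*CCND1*, *CCND3*, *CDK2*, *CDK4* and *SKP2*). The listed genes thus did not share 1 direction in either cell line. Intervals clear of 0 were not counted over all genes. Among the 53 other G1 to S genes followed below, they lay above 0 for 14 and below 0 for 13 in U87MG. In U251MG, the corresponding numbers were 16 and 21. Of all genes tested, 9648 of 17355 had a log2 fold change above 0 in U87MG and 9920 of 18222 in U251MG.

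**Figure D2:**
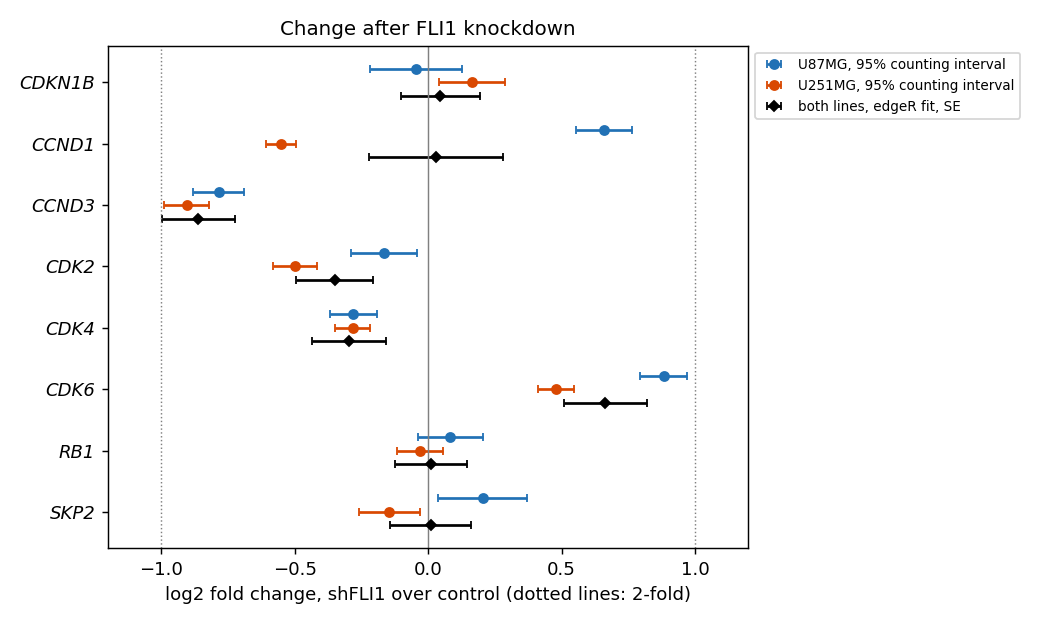
Log2 fold change of shFLI1 over control cells (x axis) for the 8 genes, with points for U87MG and U251MG (1 library per arm, bars are 95% counting intervals) and diamonds for the shared change in edgeR's model (bars are SE). *CCND3* sits left of 0 and *CDK6* right of 0 in both cell lines, whereas the 2 points of *CCND1*, at 0.66 and -0.55, lie on opposite sides.

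Before knockdown, U251MG control cells held more RNA than U87MG control cells for 7 of the 8 genes, beside 9579 of all 16391 genes tested. The largest gap was that of *CCND1*, at 85.3 CPM in U87MG control and 263 CPM in U251MG control, a 3.08-fold difference (log2 1.62, interval 1.52 to 1.72). *CDK2* followed at 1.69-fold (log2 0.76, interval 0.65 to 0.88) and *SKP2* at 1.52-fold (log2 0.60, interval 0.44 to 0.77). *CDKN1B*, *CDK4*, *CDK6* and *RB1* were between 1.21-fold and 1.39-fold higher in U251MG control cells, and *CCND3* was at 0.932 of the U87MG level (log2 -0.10, interval -0.19 to -0.01). *CCND1* was the only gene of the 8 with a gap of more than 2-fold, which 16.8% of 16391 tested genes had. The median log2 difference was 0.41 over the 8 genes and 0.11 over all genes tested.

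The control pair and the knockdown changes share their control libraries, so the values of the shFLI1 pair are given beside them. For *CCND1*, U251MG shFLI1 cells were 1.33-fold above U87MG shFLI1 cells (log2 0.41, interval 0.35 to 0.48), against 3.08-fold in the controls. For *CDKN1B*, the log2 difference was 0.33 in the controls (interval 0.16 to 0.50) and 0.54 among shFLI1 cells (interval 0.41 to 0.66). *CDK6* was higher in U251MG control cells (log2 0.28, interval 0.18 to 0.37) but lower in U251MG shFLI1 cells than in the U87MG shFLI1 cells (log2 -0.13, interval -0.18 to -0.07).

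Over all 4 libraries, *CCND1* and *CDK2* passed the test of a difference between the cell lines, which is 2 of 8 genes, where 18.6% of the 16649 genes tested passed. The log2 difference, U251MG over U87MG, was 0.94 for *CCND1* (SE 0.25, adjusted p = 0.0329) and 0.52 for *CDK2* (SE 0.15, adjusted p = 0.0377, both by edgeR's quasi-likelihood test). Both calls were lost with DESeq2's Wald test (adjusted p = 0.424 for *CCND1* and 0.0971 for *CDK2*), with limma on the authors' FPKM (0.115 and 0.0917) and without the knockdown term (0.144 and 0.218). *CDKN1B*, *RB1* and *SKP2* had log2 differences of 0.36, 0.35 and 0.35, with adjusted p of 0.123, 0.109 and 0.143. *CDK4* was at 0.27 (adjusted p = 0.215), *CCND3* at -0.23 (adjusted p = 0.28) and *CDK6* at 0.00 (adjusted p = 0.999).

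**Figure D3:**
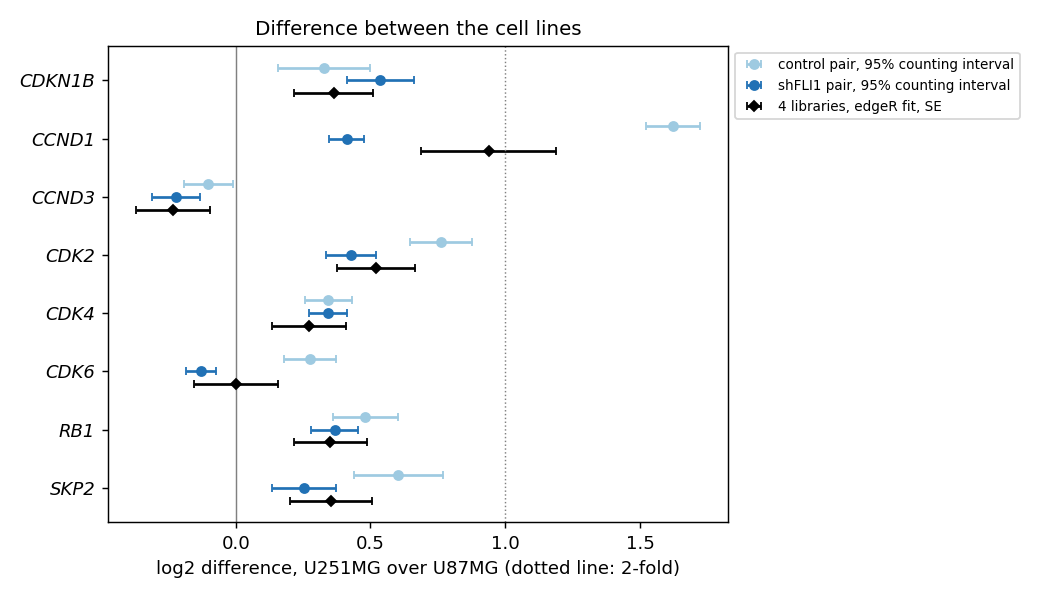
Log2 difference of U251MG over U87MG (x axis) for the 8 genes in the control pair and in the shFLI1 pair (1 library each, bars are 95% counting intervals) and over the 4 libraries in edgeR's model (diamonds, bars are SE). The points of *CCND1* are the farthest apart, at 1.62 in the controls and 0.41 among shFLI1 cells, and those of *CDK6* lie on opposite sides of 0.

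Levels of different genes were compared per length of RNA, on the authors' FPKM summed over the RNAs of a gene. *CDK4* was the highest of the 8 genes in each library, with 131.51, 118.97, 163.06 and 136.2 FPKM in U87MG control, U87MG shFLI1, U251MG control and U251MG shFLI1. Of this level, only 52.1% to 62.1% belonged to its mRNA NM_000075, and most of the rest to the RNA URS00008C202C, which had at most 17.4% of the gene's counts. On the gene sums, *CCND3* was the second in each library but U251MG shFLI1, where it was at 43.34 FPKM, below *CCND1* (55.32) and *CDK2* (47.13). *CDKN1B* had 19.01, 21.36, 23.97 and 30.35 FPKM in the same order of libraries, and its place ran from the fifth in U251MG shFLI1 to the last in U87MG shFLI1. *RB1* (23.97 to 27.24 FPKM) and *SKP2* (18.02 to 24.89 FPKM) were close to it on these sums, and the order of these neighbours was not the same in all libraries. In the U87MG control, the RNA URS0000EB2345 gave 10.97 FPKM of the *RB1* sum with 3.68% of the gene's counts. The *RB1* mRNA NM_000321 alone had 14.23, 17.12, 21.48 and 22.16 FPKM in the same order of libraries. *CDK6* was the last in each library but U87MG shFLI1, with 10.94, 24.16, 15.03 and 21.19 FPKM. By the single RNA with the most counts, *CDK4* was still the first, at between 63.49 and 96.08 FPKM, and in the U87MG control it was followed closely by *CCND3* (68.54 and 66.83 FPKM). On that measure *CDKN1B* held the fifth or the sixth place in each library, at between 15.64 and 24.3 FPKM. For *SKP2* the measures differ, since NM_005983 had the most counts over the 4 libraries together and at most 9.57 FPKM, while NM_032637 had between 11.49 and 15.49 FPKM.

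The balance between genes of the same role differed between the libraries. Summed over RNAs, the ratio of *CCND1* to *CCND3* FPKM was 0.301 for U87MG control cells, 0.805 for U87MG shFLI1 cells, and 0.955 in U251MG control and 1.28 in U251MG shFLI1 cells. It was higher in the shFLI1 library of each pair. The ratio of *CDK4* to *CDK6* FPKM was 12.0 and 4.92 in U87MG control and shFLI1 cells, and 10.8 and 6.43 in U251MG control and shFLI1 cells, lower in the shFLI1 library of each pair. The summed FPKM of *CCND1* and *CCND3* was 103 and 91.0 in U87MG control and shFLI1 cells and 152 and 98.7 in U251MG control and shFLI1 cells. These ratios rest on 1 library each and have no replicate check.

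The deposited table splits each gene's counts between its RNAs, an estimate that is less certain than the sum. For *CDK6*, the RefSeq RNA NM_001145306 had 77.2 CPM in U87MG control and 168 in U87MG shFLI1 cells, and 83.0 and 131 CPM in U251MG control and shFLI1 cells. The other main RNA, NM_001259, had 36.7 and 25.8 CPM in U87MG control and shFLI1 cells and 45.3 and 47.1 CPM in U251MG control and shFLI1 cells. The higher *CDK6* level of the shFLI1 libraries therefore lay mainly in NM_001145306. This RNA had a share of the gene of 65.6% and 77.6% in U87MG control and shFLI1 and 58.2% and 66.0% in U251MG control and shFLI1. Part of the rise lay in smaller RNAs. The predicted RNA XM_006715835 had 0 and 312.68 counts in U87MG control and shFLI1 and 119.18 and 367.42 in U251MG control and shFLI1. For *SKP2*, the predicted RNA XM_011514083 had 4.03 and 7.39 CPM in U87MG control and shFLI1 cells and 2.80 and 9.23 CPM in U251MG control and shFLI1 cells. The RNA NM_005983, which had the most counts over the 4 libraries, made up 42.8% and 35.4% of *SKP2* counts in U87MG control and shFLI1 and 58.9% and 46.6% in U251MG control and shFLI1. In the remaining genes a single mRNA had most of the counts. It had at least 96.2% for *CDKN1B* and *RB1*, between 86.4% and 92.5% for *CDK2*, and at least 82.3% for *CDK4*. A second RNA, URS00008C202C, had between 12.2% and 17.4% of *CDK4* counts, and NM_052827 had at most 10.95% of *CDK2* counts.

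**Figure D4:**
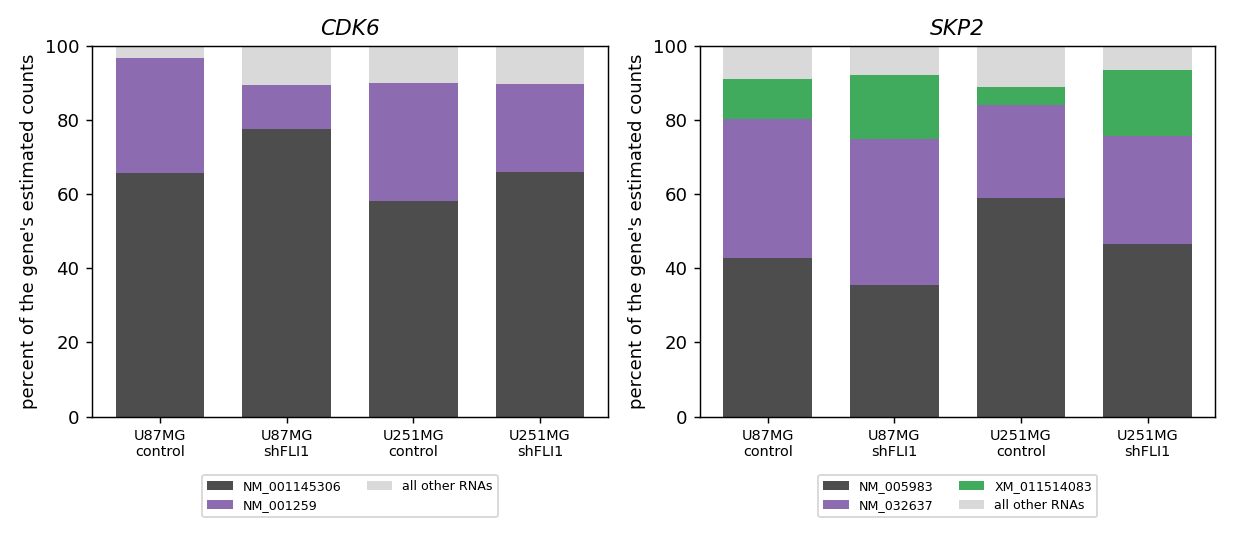
Percent of a gene's estimated counts (y axis, 0 to 100) assigned to each RNA of *CDK6* and *SKP2* in the 4 libraries, 1 library per bar. NM_001145306 takes more of *CDK6* in the shFLI1 library of each cell line, reaching 77.6% in U87MG, and XM_011514083 takes more of *SKP2*, 17.1% and 17.9% in the shFLI1 libraries against 10.8% and 4.92% in the controls.

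The other G1 to S genes were followed through a list of 56 genes, of which 53 were tested. *CDKN2A*, *CDKN2B* and *CDKN2C* had no row and were not analysed here. In edgeR's test of a shared change, 3.06% of all 16649 genes tested passed, with 153 higher and 356 lower. Of the 53 listed genes, 0 rose and 3 fell in this test, *CDKN1A*, *E2F1* and *E2F2*. DESeq2 called the same 3 genes and limma on the authors' FPKM called 0, as it did among all 16649 genes tested. At an unadjusted p under 0.05, edgeR counted 4 of the 53 genes as higher and 6 as lower, beside 2751 of all 16649 genes. In each cell line, *CDKN1A* was also the 1 gene of the 53 that differed by more than 2-fold. Of all genes tested, 14.5% differed by more than 2-fold in U87MG and 9.76% in U251MG. The median shared log2 fold change of the 53 genes was -0.03, beside 0.01 over all genes tested.

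*CDKN1A* encodes P21, the close relative of P27 in the same inhibitor family. Control cells had 114 CPM (1310 counts) in U87MG and 138 CPM (2457 counts) in U251MG, and shFLI1 cells had 46.4 CPM (1031 counts) in U87MG and 49.1 CPM (1469 counts) in U251MG. Both shFLI1 libraries lay far below both controls, with log2 fold changes of -1.30 in U87MG (interval -1.42 to -1.18) and -1.49 in U251MG (interval -1.58 to -1.40), while those of *CDKN1B* were -0.05 and 0.16. The shared change of *CDKN1A* was -1.41 (SE 0.14, adjusted p = 0.00142 by edgeR's quasi-likelihood test). Of the other inhibitors, *CDKN2D* was at -0.30 (adjusted p = 0.441 by edgeR). *CDKN1C* had between 7 and 32 counts per library, so its value of 0.18 (SE 0.59, adjusted p = 0.919 by edgeR) was imprecise.

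Among 12 genes of the RB family and E2F, 2 fell in edgeR's test, the activating factors *E2F1* and *E2F2*, where 3.06% of all genes tested passed. *E2F1* was at 64.4 and 44.6 CPM in U87MG control and shFLI1 and at 104 and 54.9 CPM in U251MG control and shFLI1 (shared log2 fold change -0.75, SE 0.15, adjusted p = 0.0371). *E2F2* was at 50.5 and 30.2 CPM in U87MG control and shFLI1 and at 49.0 and 25.6 CPM in U251MG control and shFLI1 (shared log2 fold change -0.85, SE 0.15, adjusted p = 0.0192). The shFLI1 library was lower in each pair for both genes. *TFDP2*, an E2F partner, had the largest shared value of this group, 0.28 (adjusted p = 0.372).

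In the remaining groups, 0 of 38 genes passed the test of a shared change by edgeR or DESeq2. By edgeR, 3.06% of all 16649 genes tested passed, and by DESeq2, 405 of 15035. limma on the authors' FPKM called 0 of all genes tested, so it could call none of the 38. An unadjusted p under 0.05 was given by edgeR to 6 of the 38 genes and to 2751 of all genes tested. Among cyclin E, cyclin A and their partners, values ran from -0.41 for *CCNE1* (adjusted p = 0.314) to 0.49 for *CDK3* (adjusted p = 0.529). Among genes of CDK activation, they ran from -0.56 for the phosphatase *CDC25A* (adjusted p = 0.174) to 0.13 for *MNAT1* (adjusted p = 0.764). For the ubiquitin ligase parts, *CKS1B*, the cofactor that SKP2 needs to bind P27, had the lowest value at -0.48 (adjusted p = 0.136) and *FBXW7*, which targets cyclin E, the highest at 0.58 (adjusted p = 0.143). Among regulators of P27, values ran from -0.30 for *FOXO1* (adjusted p = 0.431) to 0.46 for *FOXO4* (adjusted p = 0.337).

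**Figure D5:**
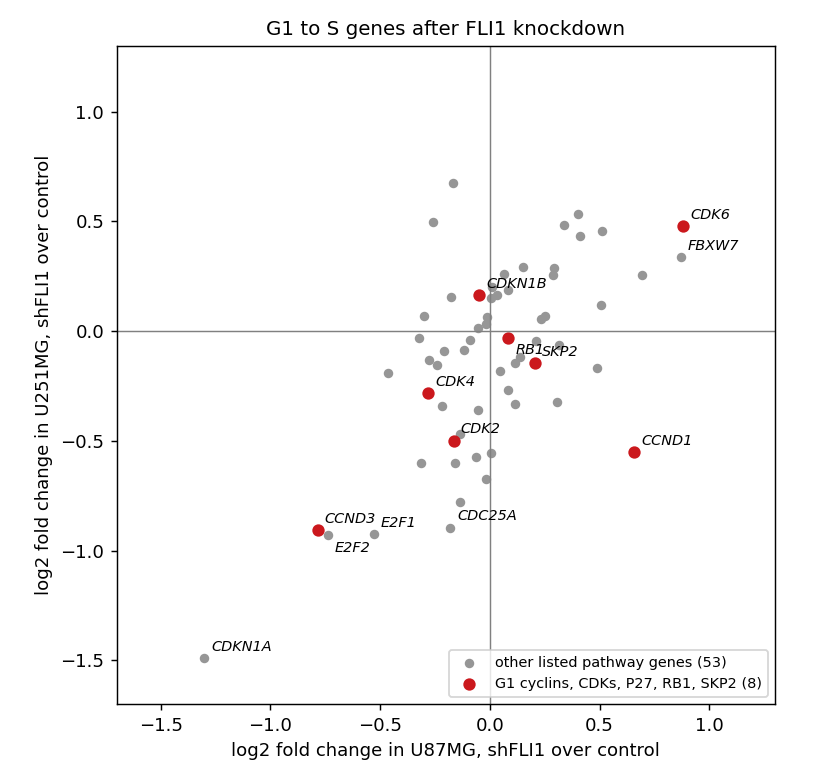
Log2 fold change of shFLI1 over control cells in U87MG (x axis) and U251MG (y axis) for the 8 listed genes and the 53 other G1 to S genes, 1 gene per point and 1 library per arm. *CDKN1A*, at -1.30 and -1.49, lies farthest to the lower left, with *CCND3*, *E2F1* and *E2F2* above it, and *CCND1* lies apart in the lower right.

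Between the cell lines, 18.6% of all 16649 genes tested passed edgeR's test, with 1726 higher and 1374 lower in U251MG. Of the 53 pathway genes, 9 were higher and 1 was lower in U251MG by this test. *CCNA1*, a cyclin A gene mainly known from the germ line, had the largest difference, with 2.1 and 2.34 CPM in U87MG control and shFLI1 and 10.4 and 12.7 CPM in U251MG control and shFLI1 (log2 2.31, SE 0.26, adjusted p = 0.000625). *RBL2*, which encodes the RB1 relative p130, was at 54.9 and 58.2 CPM in U87MG control and shFLI1 and at 127 and 144 CPM in U251MG control and shFLI1 (log2 1.19, SE 0.14, adjusted p = 0.000846). *CCNE1*, the cyclin partner of CDK2, was at 11.4 and 10.3 CPM in U87MG control and shFLI1 and at 28.6 and 18.8 CPM in U251MG control and shFLI1 (log2 1.02, SE 0.19, adjusted p = 0.00725). Other genes higher in U251MG included *RBL1* (log2 0.89), *UHMK1* (0.68), *FOXO3* (0.62), *CUL4B* (0.61) and *TFDP2* (0.52), with adjusted p between 0.00622 and 0.036. *FBXO31* was lower (log2 -0.53, adjusted p = 0.0393 by edgeR). DESeq2 called 8 of these genes higher, without *TFDP2*, and 0 lower, and limma on the authors' FPKM called 3 higher, *CCNA1*, *RBL2* and *CUL4B*.

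The genes whose levels over the 4 libraries were most like those of *CDKN1B* were *MGAT4B*, *SYTL4* and *RSBN1L*, at Euclidean distances of 0.039, 0.040 and 0.043 in log2 CPM centred on each gene's mean, among 9875 genes with a mean of at least 10 CPM. *MGAT4B* had 229, 223, 279 and 317 CPM in U87MG control, U87MG shFLI1, U251MG control and U251MG shFLI1. Its highest library was U251MG shFLI1, as for *CDKN1B*. With 4 libraries many genes can lie this close, and the distance is a description only.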

How the data were processed

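RNA-seq of 4 libraries was analysed, 1 per arm of each cell line, grouped by the sample labels. The authors made mRNA libraries from total RNA, aligned reads to the human genome (GRCh38.p13 per the labels) with HISAT2, and computed FPKM per RNA with StringTie. The deposited table also gave an estimated count per RNA and library, not normalized, whose tool is not given in the sources used here. The table's TPM values and its means of both lines, 10 columns in all, were left out. Estimated counts of linear RNAs were summed by Entrez gene and rounded. A sum over RNAs does not depend on how reads were split between isoforms, whereas the split itself is an estimate.

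Analyses used R 4.3.3 with edgeR 4.0.16, DESeq2 1.42.0 and limma 3.58.1, and Python 3.11.15. CPM were scaled by TMM over all gene identifiers, and log2 values used a prior count of 2. Differences within a pair of libraries were described for genes with at least 10 counts in 1 library, beside a threshold of 2-fold. The shared change and the difference between cell lines were tested with edgeR's quasi-likelihood test (genes kept by filterByExpr, TMM recomputed over them, 1 residual degree of freedom per gene) at a Benjamini-Hochberg adjusted p under 0.05 over all genes tested. The scripts were tested on simulated data. Alternatives covered other scalings, filters, prior counts, thresholds, tests and units. DESeq2 set no adjusted p for genes it filtered, and these were not counted.

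The listed genes and the pathway list were chosen with earlier results of these data known. The text names all listed genes, the pathway genes that passed a test or had the highest or lowest shared value of their group, and the 3 genes nearest to *CDKN1B*. A gene within this rule is not reported here. RNAs with at least 10% of a gene's counts in any library were considered, and smaller ones were named only where they moved a gene's sum. Coordinates and promoter windows came from RefSeq tables of GRCh38.p14, whose primary chromosomes have the coordinates of GRCh38.p13.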

Additional observations from a re-analysis of the deposited data

Results flagged for a closer look

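The changes of *CCND1* and *SKP2* after *FLI1* knockdown ran in opposite directions in the cell lines, with both counting intervals clear of 0. For *CCND1*, the log2 fold change in U251MG minus that in U87MG was -1.21 (-0.55 against 0.66). For *SKP2*, it was -0.35 (-0.15 against 0.20), and the opposition was lost with the authors' FPKM, where U251MG was at 0.01, and with the most abundant RNA alone, where U87MG was at -0.07. With 1 library per arm, the difference between the cell lines was not tested for either gene.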

How the results depend on the processing

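With 1 library per arm, no replicate could be left out, and the labels gave no replicate numbers to pair. Counts within pairs of libraries depended on the threshold and the filter. The genes over 2-fold numbered 2512 in U87MG, 1778 in U251MG and 2746 between the controls. Without a filter on low counts they were 6201, 5311 and 8040, with at least 100 counts in 1 library 555, 400 and 1050, on FPKM as log2(value + 1) 830, 538 and 1269, and at 1.5-fold 4949, 3986 and 5518. Of the 8 G1 genes, 3 (*CCND1*, *CCND3* and *CDK6*) passed 1.5-fold in U87MG, 1 (*CCND3*) in U251MG and 3 (*CCND1*, *CDK2* and *SKP2*) between the controls. In U87MG, 1 gene, *CDK6*, passed 2-fold with total counts, with FPKM at either pseudocount and with the most abundant RNA alone, which also gave 2 genes between the controls (*CCND1* and *SKP2*).

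For the shared change, DESeq2's Wald test, a minimum of 1 count in any library and a minimum of 100 counts in every library each called 2 of the G1 genes, *CCND3* and *CDK6*, against 1 in the main model. The minimum of 1 count called 1303 genes in all, against 509. limma on FPKM called 0 genes and 0 of the 8 (2155 genes at an unadjusted p under 0.05), and the model without the cell line term also called 0 and 0 (725 unadjusted). The adjusted p ranged from 1.72e-05 to 0.836 for *CCND3* and from 0.00165 to 0.991 for *CDK6*. For the difference between cell lines, 3100 genes were called, against 1813 by DESeq2, 670 by limma on FPKM and 531 without the knockdown term, and each of these called 0 of the 8 genes. The causes of these differences were not tested.

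Several values near 0 changed sign. The shared change was -0.0026 for *RB1* and -0.0024 for *SKP2* with DESeq2, -0.0029 and -0.0041 with DESeq2 size factors in edgeR, and -0.0211 for *RB1* with limma. Without the cell line term it was -0.1483 for *CCND1* and -0.0077 for *SKP2*. The difference of *CDK6* between the cell lines was -0.0096 with DESeq2, -0.0102 with its size factors and -0.0414 without the knockdown term. Scaling to total counts moved the median shared change of all genes from 0.01 to 0.14 and the calls from 153 higher and 356 lower to 166 and 199. *CCND3* was still called there (log2 -0.73, adjusted p = 0.0469 by edgeR).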
